A study of Mus musculus with 6 samples.

Results

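The Toll-like receptors and their adaptors examined here are 8 genes, Tlr3, Tlr4, Myd88, Traf6, Lbp, Cd14, Irak1 and Irak4, taken by symbol from a count table of the mouse cochlear modiolus. Of the 8, 7 had at least 1 transcript in the table, among 33676 genes that did, and Cd14 had none and is not analysed here. A total of 6 of the 7 passed the filter on low counts and were tested, among 14118 genes tested, and Tlr4 did not pass it. The 7 genes had 24 listed transcripts among 65535, of which 15 were tested.

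Libraries were sequenced from the modiolus, in whose bone the spiral ganglion neurons (SGNs) lie. There were 3 control and 3 degenerated libraries, all of wild type C57BL/6 mice. The study's methods describe 8-week-old male mice, of which the degenerated group received 1 g/kg kanamycin sulfate and 0.4 g/kg furosemide 30 min apart, a combination that destroys hair cells, and the control group received saline. The mice were sampled on day 30, and the labels do not say how many mice or cochleae went into a library. All 3 libraries of each group therefore count as replicates, but p-values measure only the spread between these libraries.

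Toll-like receptors are membrane receptors of innate immunity that recognise molecules of microbes and of damaged cells. Tlr3 binds double-stranded RNA in endosomes, and Tlr4 binds lipopolysaccharide (LPS), which Lbp carries from the blood to Cd14. Except for Tlr3, the receptors signal through the adaptor Myd88, which recruits the kinases Irak4 and Irak1 and the ubiquitin ligase Traf6, and the chain ends in NF-kB and in inflammatory genes.

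The libraries held 12480876 to 15549319 counts of listed transcripts. Levels are given as CPM, the counts summed over the listed transcripts of a gene and scaled by library size with TMM factors of 0.983 to 1.02. Genes and transcripts were called at an unadjusted p under 0.01 together with a log2 fold change of more than 0.2 in size. The study states these limits for another comparison, of double knockout with wild type mice. With Benjamini-Hochberg adjustment, the quasi-likelihood test of edgeR put 0 of the 14118 genes under 0.05, beside 1367 genes (9.68%) at an unadjusted p under 0.05, while limma-voom put 0 there and the DESeq2 Wald test 382. Of 26065 transcripts it put 4 (0.0153%) under an adjusted p of 0.05 and 1968 (7.55%) under an unadjusted p of 0.05, and none of the 4 was a member's. The DESeq2 Wald test, unlike edgeR and limma-voom, put Tlr3, Lbp, Tlr3-201 and Lbp-204 under an adjusted p of 0.05. An exact permutation test of 3 libraries against 3 cannot give a p below 0.1. The labels name the cell type as spiral ganglion neuron. SGN markers, 13 of 14 listed, summed to 12392 to 15969 CPM in control and 7405 to 11093 CPM in degenerated libraries. Of these, 2 were called lower, beside 0.715% of all genes tested. But erythroid markers (3479 to 41413 CPM over all libraries) and Schwann cell markers (4848 to 9689 CPM) were also present, so the libraries held a tissue rather than neurons alone.

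The table listed 46.0% of the annotated transcripts, and none of the 8 genes had all of its transcripts listed. Tlr3 had 6 of 9, Tlr4 had 2 of 4, Lbp had 3 of 5 and Irak1 had 10 of 22. Myd88, Traf6 and Irak4 had 1 of 3 each, and Cd14 had 0 of 2. The table ends at 65535 transcripts, which with its header line is the row limit of an older spreadsheet format. Whether it was cut there is not known, so a transcript that is not listed may still have had counts. Every value below is thus a value of the listed transcripts, which can differ from that of the gene.

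Tlr3 lies on the minus strand at chr8:45395665-45411080 (GRCm38, GENCODE M21). Its transcript Tlr3-201 is listed, while Tlr3-202 and Tlr3-205, which hold the same 2715 coding bases in the same coding exons, are not. They differ from Tlr3-201 in the 5′ UTR and at their ends. Of the 4407 bases of Tlr3-201, 97.0% also lie in an unlisted transcript and 119 lie in no other transcript. Tlr4 lies on the plus strand at chr4:66827584-66930284. Its full-length coding transcript Tlr4-201 (2505 coding bases) is listed, and Tlr4-202, which leaves it after exon 2, is not. The junctions below, 15 bases on each side of an exon boundary in GENCODE M21 transcripts (GRCm38), are shown because they say which transcripts a read can tell apart, and the capitals mark the downstream exon.
Tlr3-201, exon 4 to exon 5: ttcaaaaaccagaagAATCTAATCAAATTA
Tlr3-203, exon 1 to exon 2: agacaagaagatcagTTGGAGTCCTCATAG
Tlr4-201, exon 2 to exon 3: gctggatttatccagGTGTGAAATTGAAAC
Tlr4-202, exon 2 to exon 3: gctggatttatccagGGAGATGAACACTGA
The first junction, in the coding sequence of Tlr3 between bases 45402698 and 45400837, is shared by Tlr3-201, Tlr3-202 and Tlr3-205, so a read across it does not tell the listed transcript from the unlisted ones. The junction of Tlr3-203, a processed transcript without a coding sequence, occurs in no other annotated transcript. Both Tlr4 junctions start at base 66834060, and the one of Tlr4-201 is also in the noncoding Tlr4-204, while the one of Tlr4-202 is its own.

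**Figure D1:**
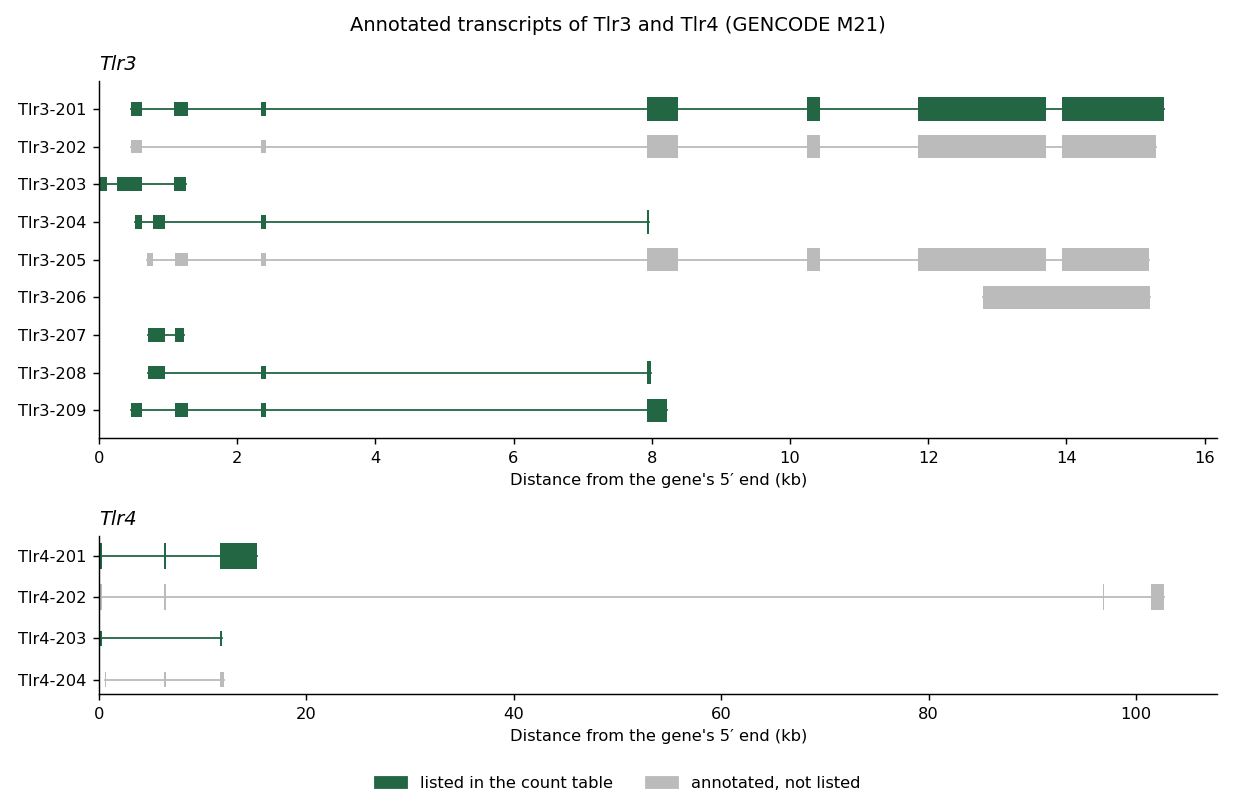
Annotated transcripts of Tlr3 (top, 9 transcripts) and Tlr4 (bottom, 4 transcripts) in GENCODE M21, with the distance from the gene's 5′ end in kb on the x axis, taller boxes for exons with coding bases and lower boxes for exons without any. Green transcripts are listed in the count table and grey ones are not, and Tlr3-201 has the same coding exons as the grey Tlr3-202 and Tlr3-205.

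The receptor Tlr3 was lower in the degenerated libraries. Its listed transcripts had 26.7, 50.4 and 30.6 CPM in control and 6.16, 6.41 and 6.16 CPM in degenerated libraries. The groups did not overlap, as in 7.37% of all genes tested in this direction, and the degenerated libraries were almost level with each other while control replicate 2 stood above the other controls. From a mean of 35.9 ± 12.7 CPM in control it fell to 6.24 ± 0.146 CPM (SD, n = 3 per group). The log2 fold change was -2.52 (SE 0.31, 95% interval -3.27 to -1.77). Tlr3 was called lower, as were 0.715% of all genes tested, and ranked 21 by p among them. After Benjamini-Hochberg adjustment over all genes, the quasi-likelihood test of edgeR gave it an adjusted p of 0.105. Per length, as TPM, its mean was 23.1 ± 3.69 in control and 15.2 ± 7.01 in degenerated libraries, a smaller fall than in CPM, and the values by library are given with the levels per length. In bulk tissue, fewer cells of a type and less RNA per cell cannot be told apart.

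Of the listed transcripts of Tlr3, 1 was called lower. Tlr3-201, which encodes the whole receptor, had 313, 704 and 423 counts in control and 6, 11 and 58 counts in degenerated libraries. Its groups did not overlap, and degenerated replicate 3 held most of what was left. Such a gap in this direction was seen in 7.24% of the transcripts tested. The log2 fold change was -4.12 (SE 1.06), with an adjusted p of 0.550 by edgeR's quasi-likelihood test and Benjamini-Hochberg adjustment over all transcripts. It was called lower, as were 0.652% of the transcripts tested. The call was kept without degenerated replicate 3 (log2 fold change -5.81) and was lost without any 1 of the other 5 libraries, at log2 fold changes of -4.35 to -3.63 and p from 0.0163 to 0.0302 in the same edgeR test. At the level of the gene, the call of Tlr3 was kept without each of the 6 libraries, at log2 fold changes of -2.71 to -2.20.

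No other transcript of Tlr3 was called. Tlr3-203, the short processed transcript at the 5′ end, had 10, 7 and 6 counts in control and 17, 15 and 18 in degenerated libraries. Every degenerated library was above every control library, as in 9.13% of the transcripts tested, but with a log2 fold change of 1.18 (SE 0.42) it was not called (adjusted p = 0.625, edgeR's quasi-likelihood test). Tlr3-209, a coding fragment with 279 coding bases, had 71, 0 and 48 counts in control and 52, 46 and 0 counts in degenerated libraries. It was at 0 in 1 library of each group, and its log2 fold change of -0.24 had a 95% interval from -4.70 to 4.23, which leaves its direction undetermined. Tlr3-204, Tlr3-207 and Tlr3-208 had at most 10 counts in any library and were not tested.

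As a share of the gene's listed counts, Tlr3-201 made up 77.7%, 98.7% and 88.3% in the control libraries and 6.67%, 12.1% and 74.4% in the degenerated ones. In degenerated replicates 1 and 2 the largest share was instead that of Tlr3-209, with 57.8% and 50.5%, while in degenerated replicate 3 that transcript had none. So the level sum of Tlr3 in the degenerated libraries, 78 to 91 counts, was made of different transcripts in different libraries. A usage test in edgeR, which sets the log2 fold change of a transcript against that of the other tested transcripts of its gene, gave a difference of 3.95 for Tlr3-203 and of -1.35 for Tlr3-201. Neither passed p under 0.01, as 1.1% of the transcripts tested did, or an adjusted p under 0.05, as 0.241% did. Among transcripts with 100 or more counts in some library, 12.3% had 0 counts in another library, so a transcript that is full in 1 library and empty in the next was common in the table. Since Tlr3-202 and Tlr3-205 are not listed, the data do not show whether the whole gene fell, or whether its counts moved between Tlr3-201 and transcripts with the same coding exons. Gm45542, an antisense gene, shares 381 exonic bases with Tlr3, and the sources used here do not say whether counting used strand.

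Tlr4 showed no difference that could be read. The LPS receptor had 20.6, 0 and 0 CPM in control and 0, 0 and 22.5 CPM in degenerated libraries. It was thus present in 1 library of each group at nearly the same level and at 0 counts in the other 4 libraries, where a count of 0 allows up to 3 counts, or 0.191 to 0.212 CPM. All of these counts, 311 and 285, were of Tlr4-201, and Tlr4-203 had 0 counts in every library. Among genes with 100 or more counts in some library, 2.6% had 0 counts in another one. Fitted without the filter on low counts, its log2 fold change was 0.11 (SE 2.77), an error too wide to show a direction. Tlr4-201 has 3211 bases that lie in no unlisted transcript.

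**Figure D2:**
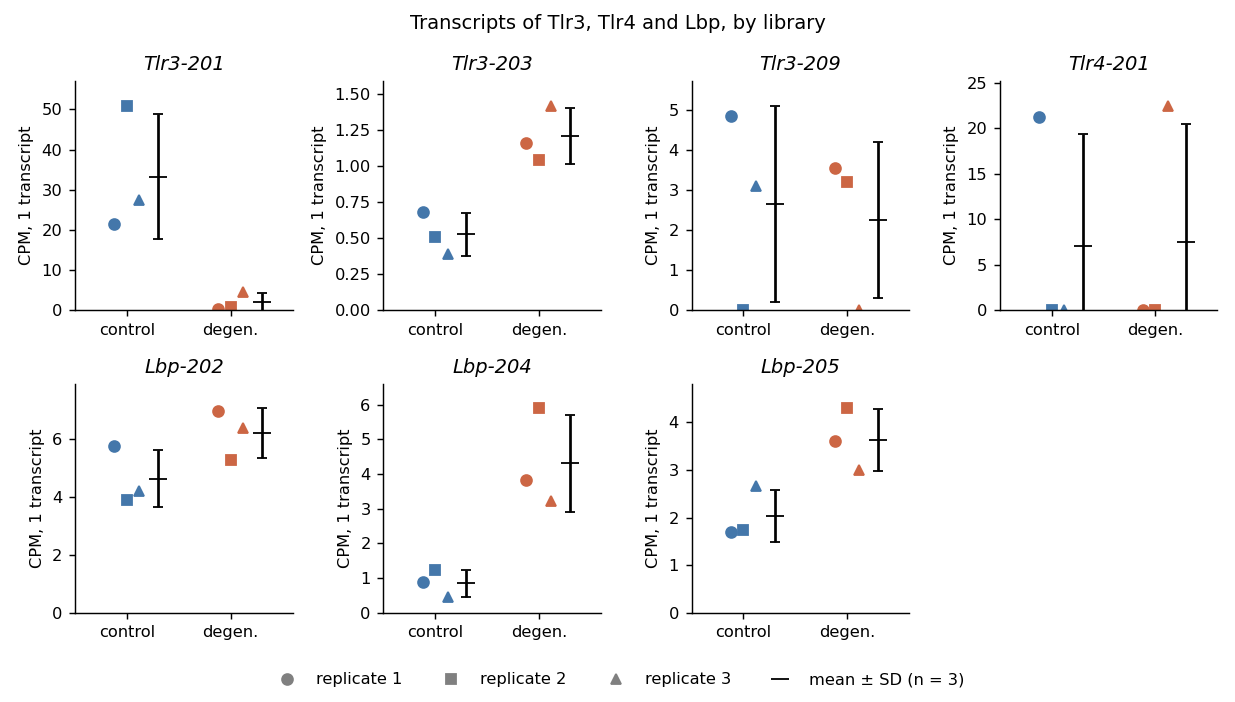
CPM of the transcripts of Tlr3, Tlr4 and Lbp with a mean of 10 or more counts per library, in 3 control (blue) and 3 degenerated (orange) libraries, with the replicate given by the symbol and bars for the mean ± SD, which end at 0. Tlr3-201 and Lbp-204 separate the groups in opposite directions, while Tlr4-201 is at 0 in 4 of 6 libraries and Tlr3-209 in 2.

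Lbp, the LPS-binding protein, was higher in the degenerated libraries. The gene lies on the plus strand at chr2:158306493-158332852. Its listed transcripts had 8.08, 6.72 and 7.21 CPM in control and 14.4, 15.7 and 12.6 CPM in degenerated libraries. No degenerated library came near the highest control library. From a mean of 7.34 ± 0.686 CPM in control it rose to 14.3 ± 1.55 CPM (SD, n = 3 per group). The log2 fold change was 0.96 (SE 0.24, 95% interval 0.37 to 1.55). Lbp was called higher, as were 2.01% of all genes tested, and had an adjusted p of 0.348 (edgeR's quasi-likelihood test with Benjamini-Hochberg adjustment). Groups apart in this direction were seen in 10.3% of all genes tested. The call did not hold without any 1 of the 6 libraries, at log2 fold changes of 0.87 to 1.04 and p from 0.0127 to 0.0298 in edgeR's quasi-likelihood test.

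None of the listed transcripts of Lbp reaches the 3′ end of the gene. The full-length coding transcript Lbp-201, with 15 exons and 1443 coding bases, is not listed. Lbp-202 is annotated as coding but ends within an extended exon 3, with 369 coding bases, Lbp-204 is annotated as a retained intron and Lbp-205 as a processed transcript. A junction that Lbp-204 and Lbp-205 share with Lbp-201 and 1 that is only in Lbp-201 show where the listed part of the gene ends, with the downstream exon again in capitals.
Lbp-204, exon 5 to exon 6: gtactggagaataagGTTTGTGAGATGATC
Lbp-201, exon 9 to exon 10: cccttcactccccagATATACAAAAAGTAT
The first runs from base 158314216 to 158317537 and the second from 158322114 to 158324509. The listed part does not end at the first, since Lbp-205 runs on to base 158320956. The second lies beyond the last base of each listed transcript.

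Each listed transcript of Lbp had a log2 fold change above 0, and only the one with the retained intron was called. Lbp-204 had 13, 17 and 7 counts in control and 56, 85 and 41 counts in degenerated libraries. The lowest degenerated library was more than the highest control library, as in 9.13% of the transcripts tested. The log2 fold change was 2.32 (SE 0.51, 95% interval 1.07 to 3.58). It was called higher, as were 1.14% of the transcripts tested (edgeR's quasi-likelihood test, Benjamini-Hochberg adjusted p = 0.464). Without control replicate 1 or 3 or degenerated replicate 1 or 2 the call was lost, at log2 fold changes of 2.02 to 2.42 and p from 0.0108 to 0.0162 in the same edgeR test, and without either other library it was kept.

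The other listed transcripts were not called. Lbp-202 had 84, 54 and 65 counts in control and 102, 76 and 81 in degenerated libraries, and these ranges overlapped. Its log2 fold change was 0.42 (95% interval -0.39 to 1.24). Lbp-205 had 25, 24 and 41 counts in control and 53, 62 and 38 in degenerated libraries. In CPM (1.71 to 2.66 against 2.999 to 4.30) these did not overlap, again as in 9.13% of the transcripts tested. Its log2 fold change of 0.84 (95% interval -0.057 to 1.73) was not called. When only coding transcripts were summed, the log2 fold change of Lbp was 0.45 and it was no longer called. The share of Lbp-204 in the listed counts of Lbp was 6.19% to 17.9% in control and 25.6% to 38.1% in degenerated libraries, without overlap, but its usage difference of 1.41 on the log2 scale did not pass p under 0.01 in edgeR.

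**Figure D3:**
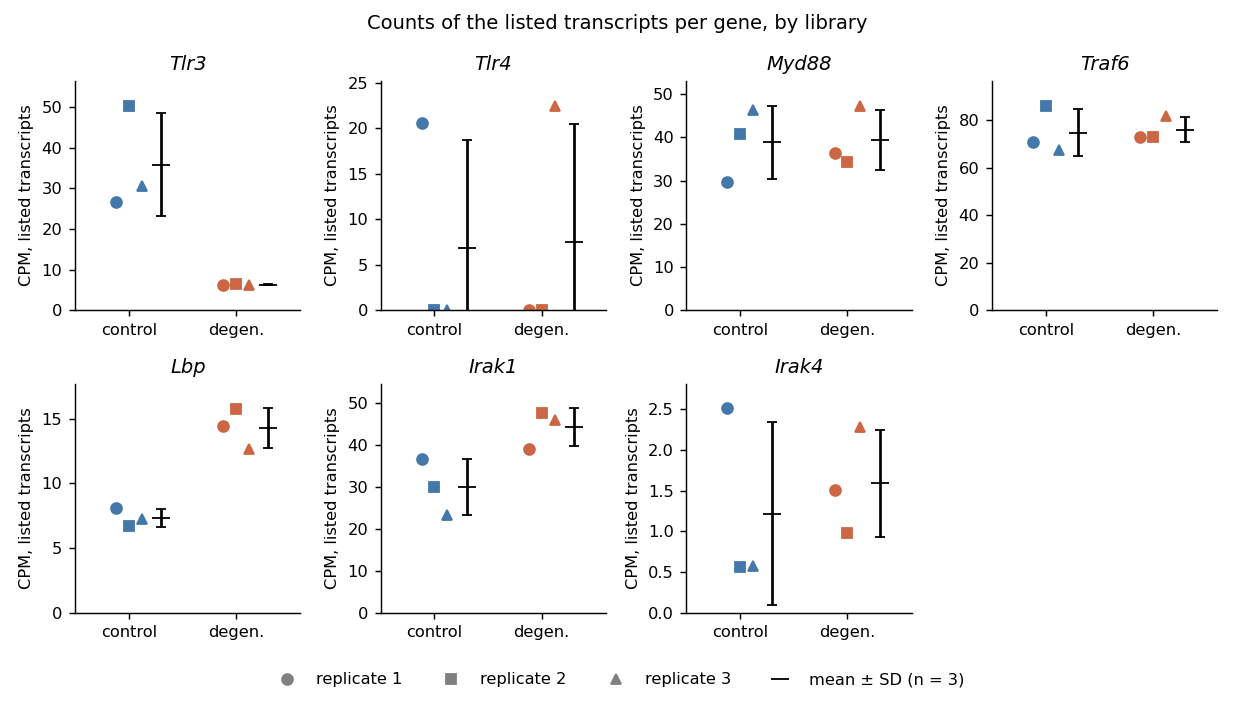
CPM of the listed transcripts of each gene in 3 control (blue) and 3 degenerated (orange) libraries, with the replicate given by the symbol and bars for the mean ± SD, which end at 0. Tlr3 is lower and Lbp and Irak1 are higher in each degenerated library than in each control library, and the ranges of the other 4 genes overlap.

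The adaptor Myd88 was level between the groups. The gene lies on the minus strand at chr9:119335934-119341411, and Myd88-201, with 888 coding bases, is its only listed transcript. It had 29.6, 40.8 and 46.3 CPM in control and 36.5, 34.3 and 47.4 CPM in degenerated libraries. The ranges overlapped, and the log2 fold change of 0.018 had a 95% interval from -0.55 to 0.59. Myd88 shares 290 exonic bases with Acaa1a on the other strand. The unlisted Myd88-203 retains the introns from exon 2 to exon 3 and from exon 3 to exon 4. It lacks both junctions there, which only Myd88-201 has. The one shown joins base 119338576 to base 119338186.
Myd88-201, exon 2 to exon 3: ttgatgaccccctagGACAAACGCCGGAAC

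Traf6, the ubiquitin ligase downstream of the Irak kinases, did not differ either. The gene lies on the plus strand at chr2:101678429-101701669, and its only coding transcript, Traf6-201, is listed. It had 70.8, 86.1 and 67.4 CPM in control and 72.7, 73.0 and 81.9 CPM in degenerated libraries, with all 3 degenerated values inside the control range. The log2 fold change was 0.021 (SE 0.15, 95% interval -0.33 to 0.38). Of the 6 members tested it had the narrowest interval, and for both Myd88 and Traf6 the sign of so small a value turned when single libraries were left out.

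Irak1, the kinase that Irak4 phosphorylates, was higher in each degenerated library than in each control library without being called. The gene lies on the minus strand at chrX:74013914-74023918. Its listed transcripts had 36.7, 29.9 and 23.4 CPM in control and 39.1, 47.7 and 45.9 CPM in degenerated libraries. The gap between the groups was small, with control replicate 1 close to degenerated replicate 1. Groups apart in this direction were seen in 10.3% of all genes tested. The control mean was 29.98 ± 6.69 CPM and the degenerated mean 44.2 ± 4.54 CPM (SD, n = 3 per group). The log2 fold change of 0.56 (SE 0.22, 95% interval 0.027 to 1.09) was not called, with an adjusted p of 0.496 (edgeR's quasi-likelihood test with Benjamini-Hochberg adjustment). Its log2 fold change was lowest without control replicate 3 (0.40) and highest without control replicate 1 (0.72).

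Irak1-201 held most of these counts, with 59.7% to 65.6% of the listed counts in control and 58.7% to 74.2% in degenerated libraries. It had 364, 252 and 239 counts in control and 401, 502 and 341 counts in degenerated libraries. In CPM the groups did not overlap (15.5 to 24.9 against 26.9 to 34.8), and the log2 fold change was 0.60 (95% interval -0.087 to 1.29). Irak1-221, a processed transcript of the 5′ part of the gene, had 33, 28 and 34 counts in control and 48, 52 and 51 in degenerated libraries. Its log2 fold change was 0.75 (95% interval 0.0028 to 1.49), also without overlap and without a call. Such a gap in this direction was seen in 9.13% of the transcripts tested. Irak1-214 had 60, 95 and 54 counts in control and 58, 0 and 109 in degenerated libraries, so that 1 library was at 0 while another had the most. Irak1-209, Irak1-210 and Irak1-217 overlapped between the groups, with log2 fold changes of 1.46 (SE 0.91), 1.13 (SE 1.91) and -0.079 (SE 0.52). Irak1-210 had 22, 0 and 0 counts in control and 0, 22 and 23 in degenerated libraries. The other 4 listed transcripts did not pass the filter.

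The transcripts of Irak1 differ towards the 3′ end. Their junctions are shown because Irak1-201 holds an exon of 117 bases, exon 12, that no other annotated transcript has, and the capitals mark the downstream exon.
Irak1-201, exon 10 to exon 11: aagaccaagtatttgAAAGACCTGATTGAA
Irak1-214, exon 3 to exon 4: aagaccaagtatttgGAGAACTCCTACATG
Irak1-201, exon 11 to exon 12: ccccccatgacccagAGGCAAAACTCCCAA
Irak1-210, exon 6 to exon 7: ccccccatgacccagGTATACAAGAGACTA
The first pair leaves from base 74019900 and the second from base 74018130. Beside that exon, the other bases of Irak1-201, 2890 in all with it, also lie in unlisted transcripts, and the other 9 listed transcripts have no base of their own against the unlisted ones. No usage difference of a transcript of Irak1 passed p under 0.01 (-0.73 to 0.94 on the log2 scale).

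Irak4, the first kinase of the chain, showed no difference that could be read. The gene lies on the plus strand at chr15:94543643-94581815. Of its 3 transcripts the table lists Irak4-203, which is annotated as a retained intron and ends well before the 2 coding transcripts. It had 38, 8 and 9 counts in control and 22, 14 and 29 in degenerated libraries, with control replicate 1 the highest of all and the ranges overlapping. The log2 fold change of the gene was 0.38 with a 95% interval from -1.38 to 2.14. Irak4 shares 395 exonic bases with Twf1 on the other strand.

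Over the 6 genes tested, 2 were called, 1 lower and 1 higher, beside 2.73% of all genes tested, and 3 had groups that did not overlap, beside 17.7% of all genes tested. Among their 15 transcripts tested, 2 were called, beside 1.79% of all transcripts tested. The plot of fold changes sets the genes and their transcripts side by side.

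**Figure D4:**
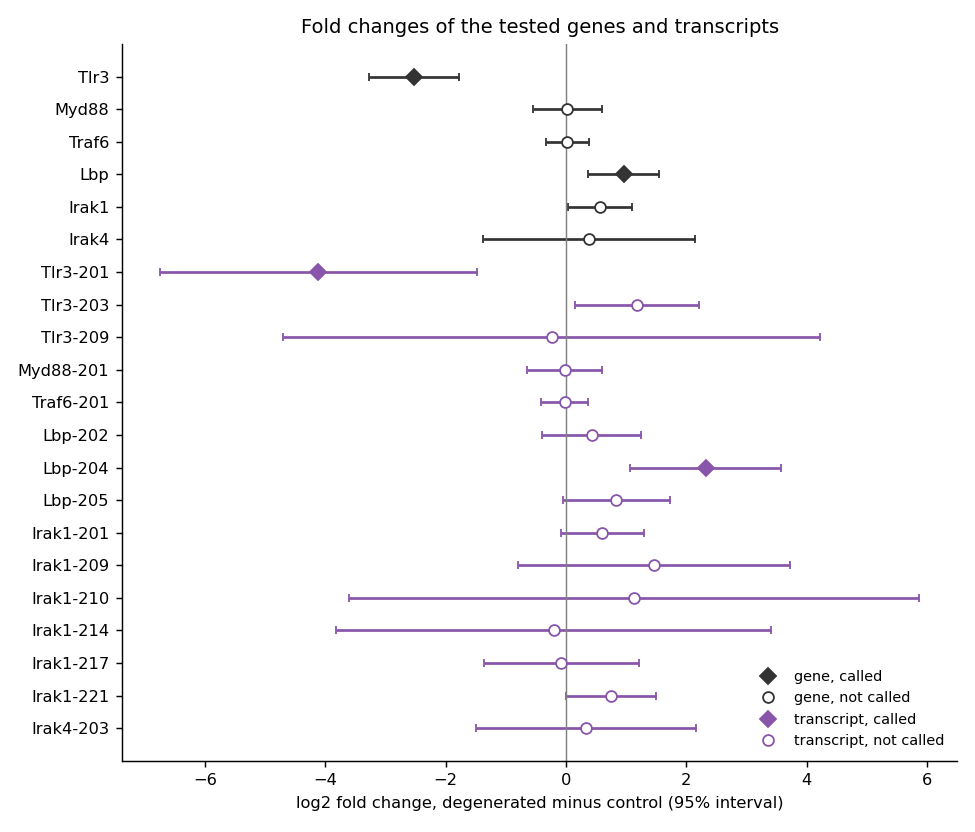
Log2 fold change (degenerated minus control, x axis) of the 6 genes and 15 transcripts tested, with 95% intervals as bars and filled diamonds for those called. Tlr3 and Tlr3-201 lie below 0, Lbp and Lbp-204 lie above 0, and the open circles of Myd88 and Traf6 lie near 0.

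Levels of different genes were compared per length, as TPM, in which the counts of the listed transcripts are divided by their lengths and scaled to the same total in each library. In control libraries the means ran from Irak1 (39.8 ± 9.59 TPM, SD, n = 3) and Myd88 (35.96 ± 6.48 TPM) through Tlr3 (23.1 ± 3.69 TPM) and Traf6 (22.1 ± 2.19 TPM) to Lbp (9.42 ± 1.66 TPM), Tlr4 (3.30 ± 5.71 TPM) and Irak4 (1.995 ± 1.96 TPM). Neighbours in this order overlapped, except Myd88 with Tlr3 and Traf6 with Lbp. In degenerated libraries the order was Irak1 (60.3 ± 8.77 TPM), Myd88 (39.5 ± 6.85 TPM), Traf6 (24.2 ± 1.85 TPM), Lbp (18.8 ± 2.08 TPM), Tlr3 (15.2 ± 7.01 TPM), Tlr4 (3.61 ± 6.25 TPM) and Irak4 (2.69 ± 1.09 TPM). There the first 4 were apart from each other, while Lbp and Tlr3, Tlr3 and Tlr4, and Tlr4 and Irak4 overlapped. Tlr3 thus stood above Lbp in the controls and overlapped with it in the degenerated libraries. Per length, Tlr3 had 27.3, 21.4 and 20.5 TPM in control and 18.2, 20.2 and 7.15 TPM in degenerated libraries, a much smaller fall than in CPM, since its remaining counts there lay mostly on short transcripts in 2 of the 3 libraries.

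The rest of the pathway was described with 8 lists of 105 genes, of which 90 were listed and 80 tested. Of the 80, 43 were higher and 37 lower in the degenerated libraries, and 49.7% of all genes tested were higher. The median log2 fold change of the 80 was 0.048 against -0.0034 over all genes. Without the members, 74 genes were tested, of which 2 were called higher (2.01% of all genes) and 0 lower (0.715% of all genes). EdgeR's quasi-likelihood test put 6 of the 74 at an unadjusted p under 0.05 (9.68% of all genes). The number called in the 8 lists was 4 in all, beside 2.73% of all genes tested. It was 2 without control replicate 3. In the DESeq2 Wald test it was 8, where 479 of all genes were called higher and 306 lower.

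Among the other receptors, none was called. Tlr8, a receptor for single-stranded RNA, had 7.68, 11.96 and 10.8 CPM in control and 14.6, 18.8 and 12.1 CPM in degenerated libraries. Its groups were apart by a narrow margin, with a log2 fold change of 0.58 (SE 0.30). Tlr1 (log2 fold change -0.52, SE 0.62), Tlr5 (-0.26, SE 0.81), the receptor for flagellin, and Tlr12 (-0.86, SE 0.80) overlapped between the groups. Tlr7 was listed with counts in 1 degenerated library only (0.0789 CPM), and Tlr2, Tlr6, Tlr9, Tlr11 and Tlr13 are not analysed here.

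Of the co-receptors and chaperones, 6 were tested and Lbp alone was called, beside 2.73% of all genes tested. The scavenger receptor Cd36 had the largest fall (log2 fold change -0.67, SE 1.36), with 0.211 CPM in degenerated replicate 2 and 33.2 and 42.5 CPM in the other 2. Ly96, the partner of Tlr4 that holds the LPS, had counts in 1 control library only (0.510 CPM). The chaperone Hsp90b1, needed for the folding of many but not all of the receptors, went from 1298 ± 430 to 1848 ± 257 CPM (SD, n = 3 each) with overlapping groups. The TIR adaptors Tirap (log2 fold change -0.14, SE 0.18), Sarm1 (-0.0058, SE 0.25) and Pik3ap1 (0.36, SE 0.24) overlapped as Myd88 did, and Ticam1, through which Tlr3 signals, and Ticam2 are not analysed here.

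Among 24 kinases and ubiquitin ligases tested, Tbk1 alone was called higher, beside 2.01% of all genes tested. Tbk1, the kinase that activates Irf3 downstream of Tlr3 and Tlr4, had 12.2, 12.7 and 10.4 CPM in control and 97.1, 67.0 and 27.8 CPM in degenerated libraries. The controls were level and the degenerated libraries spread widely above them, with a log2 fold change of 2.44 (SE 0.47, adjusted p = 0.274 by edgeR's quasi-likelihood test with Benjamini-Hochberg adjustment). Only 2 of its 7 transcripts are listed. Its relative Ikbke had the largest fall of the list and overlapped (log2 fold change -1.10, SE 0.88). Irf3 itself had the largest fall of the 8 transcription factors tested (-0.33, SE 0.26) and Irf7 the largest rise (0.82, SE 0.47), and neither was called.

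Of 12 inhibitors tested, edgeR's quasi-likelihood test called 0, beside 2.73% of all genes tested. An unadjusted p under 0.05 was seen in 1 of them, beside 9.68% of all genes tested. That gene, Irak3, a kinase-dead relative of Irak1 that restrains it, had 31.0, 28.9 and 31.7 CPM in control and 40.4, 41.8 and 44.5 CPM in degenerated libraries. The groups did not overlap, with little spread within either (log2 fold change 0.47, SE 0.15). The phosphatase Ptpn6 had the largest fall (-1.42, SE 0.80), set by 96.1 CPM in control replicate 3. Among 9 endogenous ligands tested, 7 were lower, while 49.7% of all genes tested were higher. EdgeR's quasi-likelihood test called 0 of the 9, with 1 at an unadjusted p under 0.05, the matrix protein Tnc (log2 fold change -1.03, SE 0.34). S100a9, a protein of neutrophils, had the largest fall (-1.59, SE 1.46) with 36.2 to 4266 CPM among the controls, and fibronectin (Fn1) the largest rise (0.16, SE 0.41).

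Of 12 tested genes that the pathway induces, 10 had a log2 fold change above 0, beside 49.7% of all genes tested, and 1 was called higher, beside 2.01%. Several of the 10 had errors larger than the change, such as Il1b (0.15, SE 0.79), Ccl3 (0.23, SE 1.72) and Vcam1 (0.061, SE 0.26). The chemokine Ccl7, which attracts monocytes, had 2.12, 0.708 and 2.87 CPM in control and 10.8, 28.0 and 26.8 CPM in degenerated libraries. All degenerated libraries were well above all controls (log2 fold change 3.51, SE 0.66, adjusted p = 0.259 by edgeR's quasi-likelihood test with Benjamini-Hochberg adjustment). The chemokine Ccl5 had the largest fall of the list (-0.65, SE 0.54) and overlapped.

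**Figure D5:**
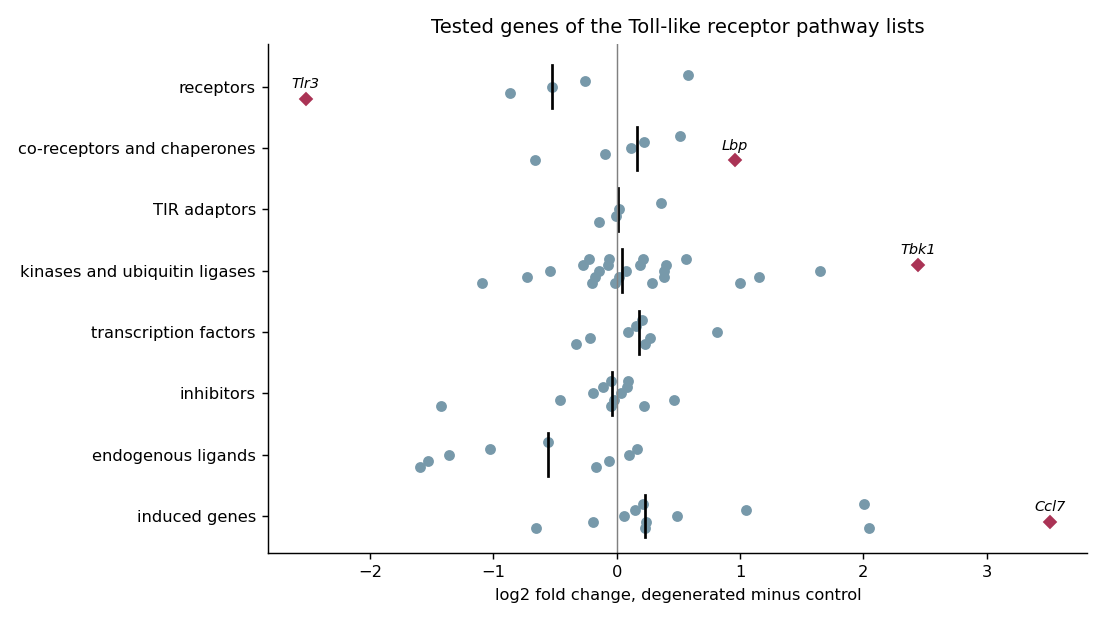
Log2 fold change (degenerated minus control, x axis) of the 80 tested genes in the 8 pathway lists (rows), with a black line for the median of each list and red diamonds for called genes. The called genes are Tlr3 at -2.52, Lbp at 0.96, Tbk1 at 2.44 and Ccl7 at 3.51, and the other points spread on both sides of 0.

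Markers of cells that carry these receptors were set beside the results. Of the 16 macrophage markers, 13 were listed and 11 tested. The listed ones summed to 764 to 988 CPM in control and 865 to 1125 CPM in degenerated libraries. Called higher were 2, the complement genes C1qb and C1qc, beside 2.01% of all genes tested. Of the 11 tested, 6 were higher and 5 lower, and none of the 5 was called. These were Cd68 (log2 fold change -1.54, SE 1.11), Itgam (-0.67, SE 0.66), Ptprc (-0.53, SE 0.44), Tyrobp (-0.52, SE 0.47) and Cd163 (-0.26, SE 0.31). Of the higher ones that were not called, Fcgr1 (0.68, SE 0.22) had groups that did not overlap, as in 10.3% of all genes tested. Cx3cr1 (1.85, SE 1.67) and Mrc1 (0.19, SE 0.21) overlapped. Aif1, which was not tested, had 15.1, 0.0707 and 16.2 CPM in control and 0.137, 0 and 0 CPM in degenerated libraries. No listed macrophage marker was at 0 in all libraries, but Fcrls had a single count, in degenerated replicate 3 (0.0789 CPM). Adgre1, Csf1r and C1qa are not analysed here. Neutrophil and marrow markers, 9 of 12 listed, ranged from 249 to 13673 CPM in control and from 642 to 4728 CPM in degenerated libraries, with control replicate 2, which also had the most Tlr3, the highest. B cell markers, 6 of 8 listed, ranged from 16.9 to 452 and from 55.1 to 260 CPM. Their part in the results was not tested.

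Several other lists did separate the groups as Tlr3 or Lbp did. Hair cell markers (10 of 10 listed) summed to 505 to 721 CPM in control and 168 to 464 CPM in degenerated libraries, markers of osteoblasts and osteoclasts (7 of 10) to 551 to 706 and 189 to 304 CPM, and muscle markers (12 of 12, of which 1 was at 0 in all libraries) to 733 to 1352 and 331 to 522 CPM. SGN markers were lower as well, as given above. Of the muscle markers 4 passed the filter on low counts and were tested. Pvalb is in both the muscle and the SGN list, so these sums share a gene and are not independent. Supporting and epithelial cell markers (7 of 10) were higher, at 1679 to 1907 CPM in control and 2096 to 2555 CPM in degenerated libraries. Sums of the fibroblast, endothelial and Schwann cell markers overlapped between the groups. Whether these cells account for the values of Tlr3, Lbp or Irak1 was not tested.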

How the data were processed

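The authors aligned reads with Hisat2 2.1.0, evaluated expression with StringTie 1.3.3b and deposited raw counts per Ensembl transcript for 6 libraries made with an Illumina TruSeq RNA kit and, per the series' design text, sequenced on a HiSeq 2500. The labels and the methods name different RNA extraction reagents. The submitters' processing notes name Bowtie 0.12.2 and the builds mm8 and mm10. No source used here gives the annotation, the counting tool or its use of strand. The counts are whole numbers without normalization.

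Transcripts were matched by ID to GENCODE M21 (GRCm38). Of 65535, 263 did not match (0.125% of all counts) and were left out. Counts were summed per gene over the listed transcripts. Genes and transcripts were tested in all 6 libraries without covariates in R 4.3.3 with the robust quasi-likelihood test of edgeR 4.0.16 after filterByExpr and TMM, adjusted over the whole table by Benjamini-Hochberg, and transcript usage with diffSpliceDGE on 18255 transcripts. The common biological coefficient of variation of genes was 0.488. Intervals are 95% intervals. All columns of the table were used. Alternatives were DESeq2 1.42.0, limma-voom (limma 3.58.1), other normalizations and filters, a replicate block, leave-one-out and coding transcripts only. The steps were tested on simulated data.

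Named are the 8 members, their transcripts with a mean of 10 or more counts, the pathway genes called, all receptors and TIR adaptors, the largest rise or fall of each other list, and for each member the 3 genes with the nearest profile. Other genes, such as Hsp90b1, Ly96, Tnc, Il1b, Ccl3, Vcam1, Cxcl1 and the macrophage markers, were chosen after their values were seen. The members and lists were chosen with earlier results of these data known.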

Additional observations from a re-analysis of the deposited data

How the results depend on the processing

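Tlr3 was called lower under every alternative run at the level of the gene, at log2 fold changes of -2.93 to -2.20. Lbp lost its call with the replicate block (0.96), with coding transcripts only (0.45) and without each library in turn (0.87 to 1.04). Tlr3-201 lost it at a mean count of 10 or more (-4.11) and with the replicate block (-4.80). Whether replicate numbers pair the libraries is not known, so the block rests on the number alone. Correlations of the deviations between libraries of the same number were 0.143, -0.0856 and 0.0656. They were not set against those of libraries with different numbers, so they cannot settle it. With the replicate block, genes called were 160 higher and 58 lower, transcripts called 138 and 83, members called 1, member transcripts called 1, and 0 transcripts passed an adjusted p under 0.05 in edgeR, against 284 and 101, 296 and 170, 2, 2 and 4 without it. The DESeq2 Wald test called 479 genes higher and 306 lower, 657 transcripts higher and 555 lower, 382 genes and 534 transcripts at an adjusted p under 0.05, and 8 pathway genes. Its adjusted p was 1.64e-10 for Tlr3, 0.00431 for Lbp, 0.00264 for Tlr3-201 and 0.00451 for Lbp-204. Over the other alternatives, in edgeR and limma-voom, the adjusted p ran from 0.0938 to 0.602, 0.314 to 0.719, 0.305 to 0.880 and 0.441 to 0.834 in the same order. On a scale per length, Tlr3 went from 23.1 to 15.2 TPM, a smaller fall than in CPM. Transcripts at an adjusted p under 0.05 were 2 without a filter, at a mean of 10 or more and with limma-voom. Member transcripts called were 1 at a mean of 10 or more, and members called were 1 with coding transcripts only. Without 1 library, genes called higher ranged from 144 to 339 and lower from 76 to 158, and 0 to 3 genes passed the adjusted p (the 2 and the 3 without degenerated replicates 2 and 3), members called were 1, transcripts called higher 211 to 412 and lower 152 to 230, with 1 to 7 at the adjusted p, member transcripts called 0 to 2, pathway genes called 2 to 6, and their median log2 fold change -0.12 to 0.084. Signs turned only for values near 0 or with wide errors. With upper-quartile normalization Myd88-201 was 0.033 and Traf6-201 was 0.035, and with limma-voom Tlr3-209 was 0.012. Without 1 library the log2 fold changes ranged from -0.15 to 0.15 for Myd88, -0.058 to 0.13 for Traf6, -0.19 to 0.11 for Myd88-201, -0.098 to 0.087 for Traf6-201, -0.82 to 0.52 for Tlr3-209, -1.29 to 0.38 for Irak1-214, -0.57 to 0.25 for Irak1-217 and -0.023 to 1.43 for Irak4-203, and the usage difference of Lbp-205 from -0.27 to 0.18. The cause of these changes was not tested. Over single genes, transcripts and usage differences, 364 values under the alternatives kept their direction and side of the threshold. Another 26 turned sign, 19 lost the call and 1 passed the threshold only under an alternative. That 1 was the usage difference of Tlr3-203, which passed p under 0.01 in edgeR in 1 of 11 alternatives. Its adjusted p in that test was never below 0.607. The alternative limited to genes with every transcript listed gave no value, since no member is such a gene. The errors of Irak4 and Tlr4 are too wide to show a direction, and their cause was not tested.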

Other observations

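For each tested member, the 3 tested genes with the most similar profile over the 6 libraries were named by the root mean square difference of their centred log2 CPM, as a description of libraries that share depth and tissue composition. Nearest to Tlr3 were the predicted gene Gm8220 (0.414), the deacetylase Hdac6 (0.459) and the muscle gene Lmod3 (0.463), and these differences were the largest of any member. Traf6 was closest to its neighbours, with Tmem259 at 0.0261, the agrin receptor Lrp4 at 0.0341 and the phosphatase Ctdsp1 at 0.0380. Myd88 had the translation factor Eif4a1 (0.0595), Poln (0.0660) and the inflammatory caspase Casp4 (0.0673). For Lbp they were Rab14 (0.0815), the potassium channel of glia Kcnj10 (0.0838) and the cadherin Cdh19 (0.0926), and for Irak1 the G protein subunit Gnb1 (0.0436), Thada (0.0501) and Gm13889 (0.0736). Irak4 had Esyt2 (0.164), Gm26315 (0.171) and Gm24447 (0.229).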
